A study of Mus musculus with 3 samples.

Results

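The genes that set the phosphorylation of the regulatory light chain of myosin II were described in RNA sequencing libraries of mouse glomerular cells: the light chain Myl9, its kinase Mylk, the ROCK kinases Rock1 and Rock2, the phosphatase catalytic subunit Ppp1cb, the phosphatase targeting subunits Ppp1r12a, Ppp1r12b and Ppp1r12c, and the phosphatase inhibitors Ppp1r14a and Ppp1r14b. These 10 genes were chosen by name for their role in contraction of mesangial cells, and all 10 have a row among the 39304 rows of the expression table. The glomeruli were those of 1 wild-type C57BL/6 male aged 8 weeks. The cDNA of 15 mesangial cells, contractile cells that support the glomerular capillaries, was pooled with that of 15 endothelial cells from the capillary lining. Each cell had been typed by qPCR beforehand, and the pool was split into 3 aliquots for library making. There is 1 group and no control, so every SD is over the 3 aliquots (n = 3) and measures library making and sequencing, not mice or cells. A level in the pool cannot be assigned to mesangial or endothelial cells. Expression of a gene in fewer of the pooled cells and less of its RNA per cell cannot be told apart.

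Contraction of smooth muscle, mesangial and other non-muscle cells is driven by myosin II once its regulatory light chain is phosphorylated. Calcium and calmodulin activate myosin light chain kinase, which adds the phosphate, and myosin phosphatase, made of a catalytic subunit and a targeting subunit, removes it. The ROCK kinases shift the balance toward phosphorylation, mainly by phosphorylating the targeting subunit, and the small inhibitor proteins of the Ppp1r14 family block the catalytic subunit when they are phosphorylated themselves.

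The sites on which this balance turns lie in the coding sequences of the members, and they are shown here to place the measured genes in the pathway. The stretches come from GENCODE M21 on GRCm38, from the transcript with the longest coding sequence, and are written 5′ to 3′ on the coding strand. For the regulatory light chains the capitals mark the adjacent threonine and serine codons that the kinase targets, codons 19 and 20 counted from the start codon in each gene. Myl9 lies at chr2:156778575-156778607 (plus strand), Myl12a at chr17:70996818-70996850 and Myl12b at chr17:70977169-70977201 (both minus strand), in each case in exon 2 of 4.
Myl9: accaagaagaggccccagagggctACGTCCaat
Myl12a: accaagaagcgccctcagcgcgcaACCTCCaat
Myl12b: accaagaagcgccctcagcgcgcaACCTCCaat
Over these 33 bases Myl12a and Myl12b were identical, and Myl9 matched each of them at 26. Over the whole coding sequence of 516 bases Myl12a and Myl12b were 96.5% identical, and Myl9 was 85.7% identical to Myl12a and 86.4% to Myl12b.

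The targeting subunits share a threonine whose phosphorylation, by ROCK kinases among others, lowers phosphatase activity. Capitals mark its codon, which is codon 694 of Ppp1r12a, 645 of Ppp1r12b and 560 of Ppp1r12c in the transcripts used. Each stretch runs across an exon junction, so its coordinates span an intron: chr10:108259823-108260844 (plus strand, exons 15 and 16) for Ppp1r12a, chr1:134838033-134842666 (minus strand, exons 14 and 15) for Ppp1r12b and chr7:4483549-4483666 (minus strand, exons 13 and 14) for Ppp1r12c.
Ppp1r12a: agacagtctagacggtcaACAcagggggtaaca
Ppp1r12b: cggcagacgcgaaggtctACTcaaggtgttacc
Ppp1r12c: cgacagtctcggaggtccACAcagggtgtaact
Ppp1r12a matched Ppp1r12c at 26 of the 33 bases and Ppp1r12b at 21. The inhibitors Ppp1r14a, known as CPI-17, and Ppp1r14b share a further threonine, whose phosphorylation turns them into strong inhibitors. Its codon, again in capitals, is codon 38 of Ppp1r14a (chr7:29289431-29289466, plus strand, exon 1) and codon 57 of Ppp1r14b (chr19:6975402-6975437, plus strand, exon 1).
Ppp1r14a: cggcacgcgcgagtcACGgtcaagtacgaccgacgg
Ppp1r14b: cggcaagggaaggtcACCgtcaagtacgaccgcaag
These inhibitor stretches matched at 27 of 36 bases.

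The pool held transcripts of the light chain, its kinase, both ROCK kinases and the catalytic and targeting subunits of the phosphatase, while the inhibitor genes were below the detection limit. Detection was taken as at least 1 FPKM (fragments of a gene scaled to 1000000 reads in a library and to a kilobase of gene length) in every aliquot. By that limit 8 of the 10 genes were detected, against 21.7% of all rows of the table and 36.4% of its protein-coding genes. The median level of the 10 genes, the undetected ones included, was 56.3 FPKM. With the members under 1 FPKM left out it was 147 FPKM, and the median of all detected genes was 19.7 FPKM. Since the genes were chosen for a role in cells of this pool, these counts describe them and nothing was tested. The library totals were 9141422, 10427635 and 10976563 reads in aliquots 1, 2 and 3, and the 10 genes together took 0.614%, 0.604% and 0.606% of them.

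**Figure D1:**
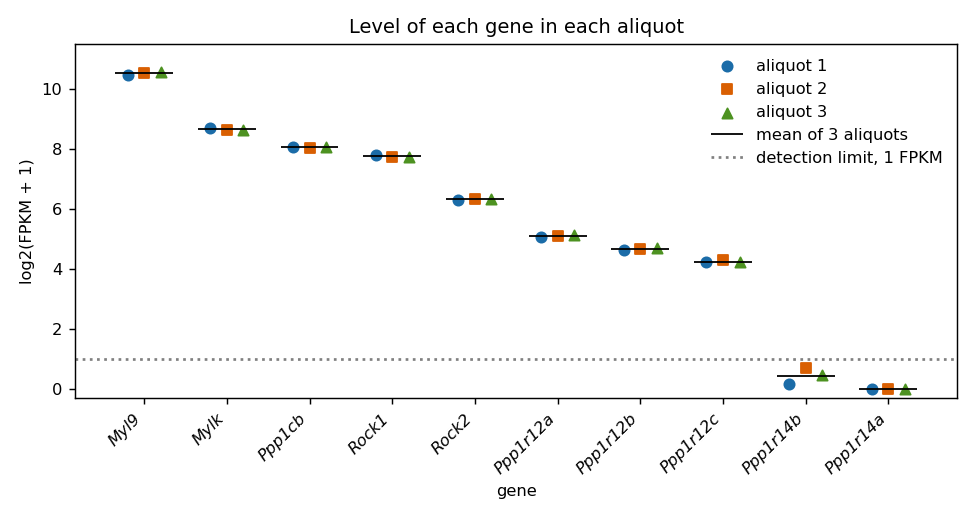
Level of each of the 10 genes on the log2(FPKM + 1) scale (vertical axis) in each aliquot (symbols), with the mean of the 3 aliquots as a line and the detection limit of 1 FPKM dotted. Myl9 stands highest, 8 genes lie above the limit, and Ppp1r14b and Ppp1r14a lie below it.

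Myl9 (ENSMUSG00000067818, chromosome 2, 156775420 to 156781658, plus strand), the regulatory light chain typical of smooth muscle and other contractile cells, was the highest of the 10. It had 1420 FPKM in aliquot 1, 1488 in aliquot 2 and 1504 in aliquot 3, a mean of 1471 ± 44.4 FPKM, and rank 30 of all rows. Its level was 3.63 times that of Mylk, the next member. The light chains of its family in non-muscle cells were also abundant, Myl12b with 935 ± 25.6 FPKM and Myl12a with 790 ± 16.6 FPKM. The log2 ratio of Myl9 to Myl12a on the log2(FPKM + 1) scale was 0.90 ± 0.022, and to Myl12b 0.65 ± 0.029. Of the summed level of these 3 genes Myl9 made 46.0% ± 0.438. The split between Myl12a and Myl12b is uncertain, since their order turned when levels were set per longest transcript (392 FPKM for Myl12a and 343 for Myl12b). Whether reads from their near-identical coding parts were assigned to the right gene was not tested.

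The sequence before the start of Myl9 is shown because its level was the highest among the members and because the CArG box, the element bound by serum response factor, is a textbook element of contractile genes. RefSeq promoters (GRCm38.p6) were found for 9 of the 10 members, with 10 entries in all. Each was searched on both strands over the 250 bases before the annotated start. The box was found in 1 member, Myl9, in which it begins 161 bases before the RefSeq start. The entry searched for Mylk lies inside the GENCODE gene, so its other starts were not searched. The box was found in 1.47% of all 32851 promoters. The stretch runs from chr2:156775214-156775419 (plus strand), ends where the GENCODE gene begins, and has the 10 bases of the box in capitals.
Myl9 upstream: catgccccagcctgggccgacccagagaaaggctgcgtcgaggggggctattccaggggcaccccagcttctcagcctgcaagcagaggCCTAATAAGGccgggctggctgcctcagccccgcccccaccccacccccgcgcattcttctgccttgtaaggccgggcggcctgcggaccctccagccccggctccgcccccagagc
The match is a description of these letters. Binding was not measured.

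Mylk (ENSMUSG00000022836, chromosome 16, 34745210 to 35002420, plus strand) encodes the calcium- and calmodulin-dependent kinase of the light chain. It had 414, 401 and 399 FPKM in aliquots 1, 2 and 3, a mean of 405 ± 7.90 FPKM, and rank 197 of all rows. The gene makes a long and a short kinase and the small protein telokin from separate promoters, and a value per gene does not divide them. The other kinase genes of its family were far lower. The cardiac kinase Mylk3 had 7.87, 10.1 and 8.82 FPKM, Mylk4 had 0.0621 ± 0.0250 FPKM, and the skeletal muscle kinase Mylk2 was listed at 0 in each aliquot. Mylk was therefore the dominant kinase gene of its family in the table.

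Rock1 (ENSMUSG00000024290, chromosome 18, 10064401 to 10182045, minus strand) and Rock2 (ENSMUSG00000020580, chromosome 12, 16894895 to 16987823, plus strand) encode the ROCK kinases, which small GTPases activate. Rock1 had 224, 212 and 210 FPKM in aliquots 1, 2 and 3, a mean of 215 ± 7.20 FPKM. Rock2 had 77.4, 79.5 and 80.1 FPKM, a mean of 79.0 ± 1.42 FPKM. Each aliquot thus held more Rock1 than Rock2, and their values did not overlap. The log2 ratio of Rock2 to Rock1 was -1.44 ± 0.073, and Rock1 made 73.1% ± 0.998 of their summed level. Mylk exceeded Rock1 by 0.91 ± 0.020 in log2.

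Myosin phosphatase was represented by its catalytic subunit at a high level and by its targeting subunits at lower ones. Ppp1cb (ENSMUSG00000014956, chromosome 5, 32458843 to 32517433, plus strand), the catalytic subunit found in myosin phosphatase, had 270.5, 261 and 270.5 FPKM in aliquots 1, 2 and 3, a mean of 267 ± 5.24 FPKM. The related subunit Ppp1cc had 9.27 ± 0.0318 FPKM, so that the log2 ratio of Ppp1cb to Ppp1cc was 4.71 ± 0.024. Ppp1ca, the third catalytic gene, was listed at 0 in each aliquot. It is a gene most cells use, and Ilk, which encodes an integrin-linked adhesion protein and is as widely used, was listed at 0 as well, so a zero in this table is reported only as listed and not as absence of the transcript. No ratio is given against Ppp1ca.

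Ppp1r12a (ENSMUSG00000019907, chromosome 10, 108162193 to 108284475, plus strand) encodes MYPT1, the targeting subunit that brings the catalytic subunit to myosin. It had 32.8, 33.4 and 34.5 FPKM in aliquots 1, 2 and 3, a mean of 33.6 ± 0.841 FPKM. Ppp1r12b (ENSMUSG00000073557, chromosome 1, 134754658 to 134955942, minus strand), the related MYPT2, had 24.0, 24.8 and 24.9 FPKM, a mean of 24.6 ± 0.474 FPKM. Ppp1r12c (ENSMUSG00000019254, chromosome 7, 4481520 to 4501680, minus strand), the third member of the family, had 17.9, 18.7 and 17.8 FPKM, a mean of 18.1 ± 0.514 FPKM. The 3 genes did not overlap in any pair of values. In shares of their summed level they made 44.0% ± 0.622, 32.2% ± 0.0529 and 23.8% ± 0.652 in the order named. These shares depend on gene length and were 60.3%, 22.3% and 17.4% per longest transcript. The log2 ratio was 0.43 ± 0.019 for Ppp1r12a to Ppp1r12b, 0.86 ± 0.058 for Ppp1r12a to Ppp1r12c, and -0.42 ± 0.039 for Ppp1r12c to Ppp1r12b. Per longest transcript the first became 1.33 and the second 1.65. Mylk stood 3.55 ± 0.061 above Ppp1r12a in log2, a 12.1-fold difference in mean FPKM.

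**Figure D2:**
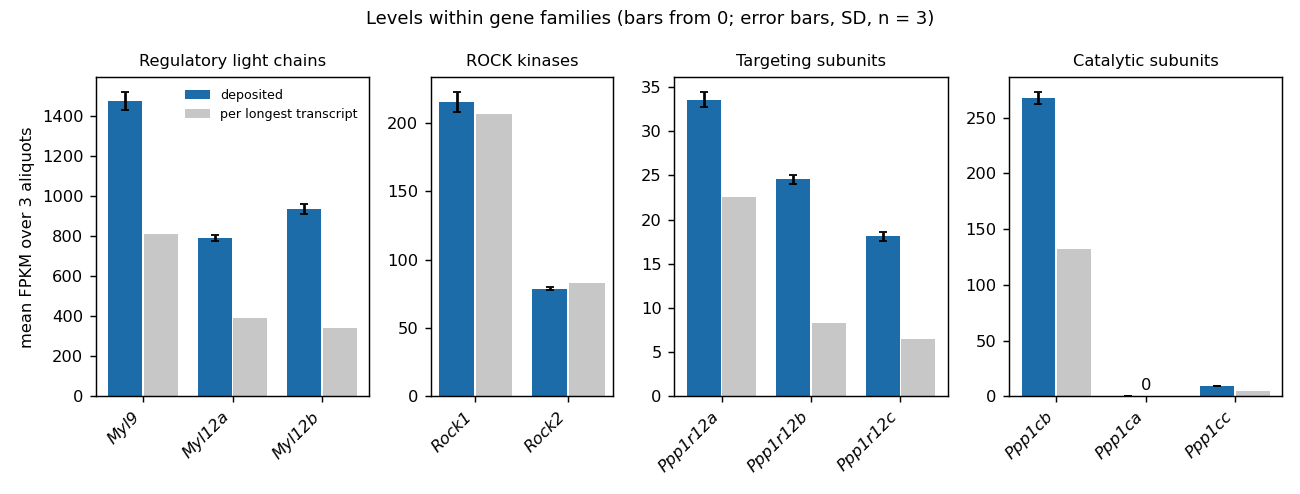
Mean FPKM (vertical axes, each from 0) of the genes in 4 families, as deposited (blue, error bars SD over 3 aliquots) and with the gene length replaced by the longest annotated transcript (grey). Myl9, Rock1 and Ppp1r12a lead their families by both lengths. Ppp1cb stands above Ppp1cc by both lengths, and Ppp1ca is listed at 0, which is not read as absence.

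The inhibitor genes had the lowest values of the 10. Ppp1r14b (ENSMUSG00000056612, chromosome 19, 6974968 to 6977324, plus strand) had 0.119, 0.626 and 0.397 FPKM in aliquots 1, 2 and 3, which correspond to 1, 6 and 4 reads. Ppp1r14a (ENSMUSG00000037166, chromosome 7, 29289308 to 29293801, plus strand) was listed at 0 in each aliquot. The inhibitors of the same family that are not among the 10 genes, Ppp1r14c and Ppp1r14d, were also listed at 0. Ppp1r12c, the lowest detected member, stood 47.6-fold above Ppp1r14b in mean FPKM and 18.6-fold per longest transcript, and both folds rest on the 11 reads of Ppp1r14b. Of the exon bases of Ppp1r14b, 1.44% lie within exons of Plcb3 on the other strand, and whether reads there were set aside as ambiguous was not tested. Other members share more exon bases with GENCODE M21 genes that have no row in the expression table. For Ppp1cb it was 17.5% with Gm43312 on the same strand. Antisense genes shared 4.87% and 1.99% for Mylk and 4.74% for Ppp1r12b. Their effect on the levels was not tested either.

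From highest to lowest the order was Myl9, Mylk, Ppp1cb, Rock1, Rock2, Ppp1r12a, Ppp1r12b, Ppp1r12c, Ppp1r14b and Ppp1r14a, and no neighbours overlapped in their values over the aliquots. The closest were Ppp1cb and Rock1, 1.24-fold apart. With 3 values against 3 an exact permutation test cannot give a p below 0.1, and the aliquots share 1 pool, so neighbours were compared by range and not tested. This order depends in part on gene length. The values imply lengths of 0.34 and 0.359 times the longest annotated transcript for Ppp1r12b and Ppp1r12c, 0.493 times for Ppp1cb, 0.55 times for Myl9 and 0.961 times for Rock1. For Rock2 the implied length was 1.05 times the longest, longer than any GENCODE M21 transcript of the gene, and levels per longest transcript may not rest on the annotation or length definition of the authors. Set per longest transcript, Ppp1cb had 132 FPKM and Rock1 207 FPKM, so that these neighbours exchanged places, while Myl9 (808 FPKM), Mylk (282 FPKM), Rock2 (82.8 FPKM) and the targeting subunits kept theirs. An implied length is the smallest that fits and can be a whole-number fraction of the length used. A level per longest transcript would then be too low. Whether this holds for Ppp1cb was not tested, so the exchange is uncertain.

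The other genes of the pathway were taken from lists of 57 genes, of which 34 were detected and 17 were listed at 0. Beside these counts and those of the single lists below, 36.4% of protein-coding genes and 21.7% of all rows were detected. The lists were chosen by name, and no count was tested against these shares. All 3 calmodulin genes, whose shared product activates the kinase, were detected, among them Calm2 with 1005 ± 4.35 FPKM. Of 4 myosin II heavy chains 3 were detected: the non-muscle chains Myh9 (379 ± 51.1 FPKM) and Myh10 (56.5 ± 2.60 FPKM) and the smooth muscle chain Myh11 (16.4 ± 1.11 FPKM), while Myh14 was listed at 0. Of 10 further myosin light chains 3 were detected, the essential chain Myl6 (1269 ± 16.0 FPKM), Myl12a and Myl12b, and the remaining 7, most of them striated muscle chains such as Myl2 and Mylpf, were listed at 0.

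Other kinases that act on the light chain or the phosphatase were detected for 6 of 12 genes. The highest was Cdc42bpa, which encodes the MRCK alpha kinase, with 323 ± 7.36 FPKM, above both Rock1 and Rock2, followed by the kinase Pak2 with 87.0 ± 2.24 FPKM, Dapk2 with 15.4 ± 1.09 FPKM and citron kinase (Cit) with 3.78 ± 0.220 FPKM. Dapk3, also known as zipper-interacting kinase, and Stk17b were listed at 0. Per longest transcript Cdc42bpa had 118 FPKM, below the 207 FPKM of Rock1. Upstream of the ROCK kinases, 8 of 12 small GTPase, exchange factor and regulator genes were detected. Rhoa had 211 ± 2.67 FPKM and Rhoc 202 ± 8.39 FPKM, and the exchange factor Arhgef2 had 79.3 ± 3.24 FPKM. Arhgdia, whose product holds these GTPases inactive in the cytosol, had 69.7 ± 1.24 FPKM, and Rnd1 and Rnd2 were listed at 0.

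Among relatives and partners of myosin phosphatase 3 of 5 genes were detected. Ppp1r16b, the targeting subunit TIMAP known from endothelial cells, had 93.5 ± 1.12 FPKM, a level 2.79 times that of Ppp1r12a. Mprip, which links the phosphatase to RhoA, had 54.8 ± 0.306 FPKM, and Ppp1r16a 4.07 ± 0.213 FPKM. All 6 kinases of the inhibitor proteins and cGMP-dependent kinase genes were detected, although the inhibitor genes were not. Protein kinase C alpha (Prkca) had 90.7 ± 2.06 FPKM, Prkcd 50.3 ± 2.77 FPKM, Pkn2 41.7 ± 1.37 FPKM and the cGMP-dependent kinase Prkg1, which acts through MYPT1 to relax smooth muscle, 33.2 ± 2.31 FPKM.

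**Figure D3:**
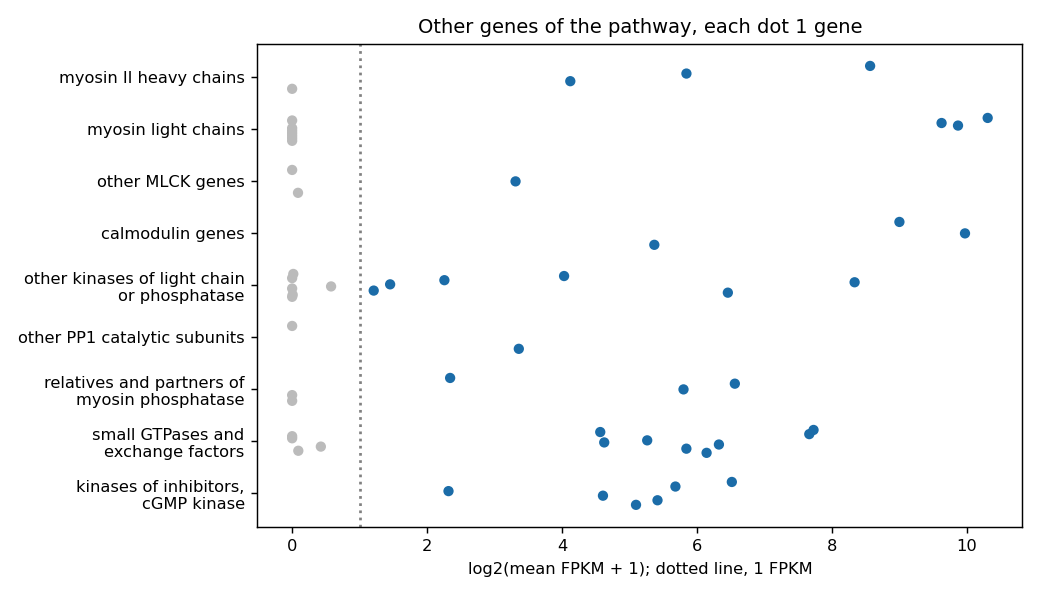
Levels of the 57 other pathway genes on the log2(mean FPKM + 1) scale (horizontal axis), 1 dot a gene and 1 row a list, blue at or above the limit of 1 FPKM (dotted) and grey below it. Calmodulin genes and kinases of the inhibitors lie wholly above the limit, and most myosin light chains lie at 0.

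Marker genes were set beside these levels. Detection was complete for the 8 mesangial markers (median 809 FPKM) and for the 8 endothelial markers (median 124 FPKM). Markers of both labelled cell types were thus detected, from lists chosen with earlier results of these data known. Complete detection did not single out the labelled types. The 6 podocyte markers were detected too, at a median of 37.2 FPKM and a summed level of 275 to 291 FPKM over the aliquots. Of 7 smooth muscle markers 4 were detected, with a summed level of 141 to 150 FPKM, led by Acta2 (72.8 ± 1.88 FPKM) and Tagln (61.2 ± 3.14 FPKM), while 3, Cnn1 and Myocd among them, were listed at 0. The part of podocyte or smooth muscle RNA in the levels of Myl9 and Mylk was not tested. Tubule markers were listed at 0 for 4 of 4 genes, and leukocyte markers for 3 of 4, with a summed level of at most 0.191 FPKM.

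Differences between aliquots were small for all 8 detected members, with coefficients of variation from 1.79% for Rock2 to 3.35% for Rock1. To see whether they exceeded sampling noise, whole reads recovered from the FPKM values were set against the library totals in a chi-square test with Benjamini-Hochberg adjustment over 9121 genes of at least 30 reads, of which 1.09% were beyond noise. Of the 8 members tested 3 were beyond noise by this chi-square test, Rock1 (adjusted p = 0.00017), Mylk (adjusted p = 0.032) and Myl9 (adjusted p = 0.034). The test calls more genes where reads are many, 10.5% of those with at least 10000 reads, a class that holds 5 of the members, these 3 among them. Aliquot 1 held 5.87% more Rock1 than the others on average and 3.38% more Mylk, whereas Myl9, at 1420 FPKM against a mean of 1496, was lower there. The heavy chain Myh9 was 25.3% higher in aliquot 1, with 437 FPKM against 345 and 353. Of all 99 genes beyond noise 66 were higher in aliquot 1. Without aliquot 1 the chi-square test found 0 of the 8 members beyond noise after adjustment and 1 at an unadjusted p under 0.05, with 2 genes of the whole table called. Without aliquot 3 the chi-square test found Rock1 alone among the members (adjusted p = 0.0048), with Mylk at an adjusted p of 0.11 and Myl9 at 0.12. The Myl9 call also ended in the chi-square test with totals taken from recovered non-mitochondrial reads (adjusted p = 0.051).

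**Figure D4:**
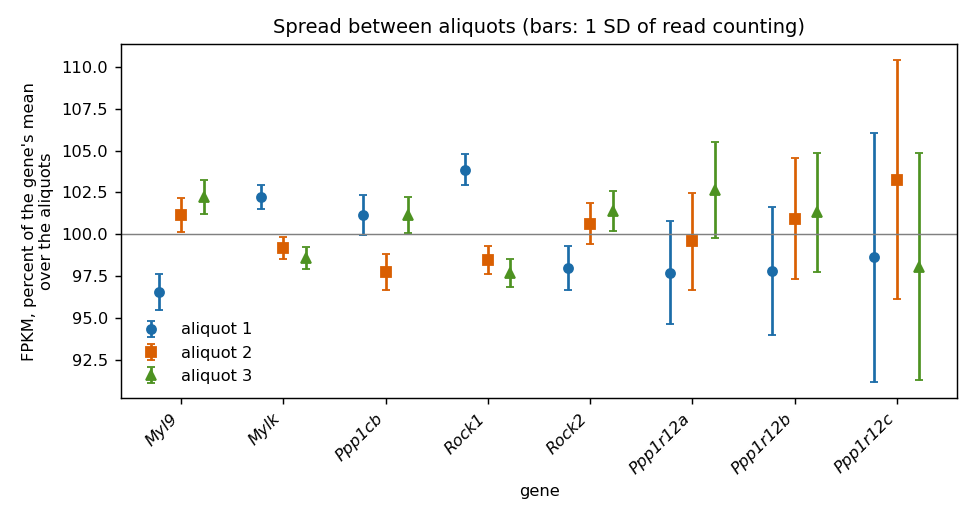
FPKM of the 8 detected genes in each aliquot as a percentage of the gene's own mean (vertical axis), with error bars of 1 SD of read counting. Aliquot 1 is the highest for Mylk and Rock1 and the lowest for Myl9, Rock2, Ppp1r12a and Ppp1r12b. For Ppp1r12a, Ppp1r12b and Ppp1r12c the bars of the aliquots overlap.

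The reads behind these values differed widely between the members. Mylk rested on 67304 reads over the aliquots, Rock1 on 40606, Myl9 on 27906, Ppp1cb on 24003 and Rock2 on 19355. The targeting subunits rested on fewer, 3493 for Ppp1r12a, 2258 for Ppp1r12b and 593 for Ppp1r12c, and Ppp1r14b on 11. These reads come from amplified cDNA without molecular identifiers named in the labels, so they cover counting error only.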

How the data were processed

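The 3 libraries, aliquots of 1 cDNA pool, were analysed from a table of 39304 genes. The authors deposited FPKM values. Per the submitters' processing notes, TopHat2 2.0.12, HTSeq 0.6.1 and the GRCm38 build were used; gene lengths, options and the release of the annotation were not given in the sources used here. Columns were mapped by sample title, and symbols came from the reference name table (37607 identifiers matched). Gene positions, transcripts and coding stretches came from GENCODE M21 (GRCm38) and promoters from RefSeq (GRCm38.p6).

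Low FPKM values step in whole reads. Library totals were taken as the most frequent total implied by 1 read in genes under 0.5 FPKM, and each gene's reads as the smallest whole numbers fitting all aliquots within 0.0001 reads, which was possible for all 11142 genes above 0. For 368 genes a whole multiple within 1 base of the mean transcript length was used. Recovered reads made 96.7% of each total and can be a whole-number fraction of the true reads of a gene, so its chi-square statistic can be too small. The read count, implied length and level per longest transcript of such a gene would be too low as well. Ratios per longest transcript or from reads with no length carry the same limit. Tested on simulated data of 10949 genes for the spread of the 3 aliquots, the recovery returned 99.8% of genes up to a whole factor. The chi-square test then called 42.0% of 100 genes raised 1.25-fold in 1 aliquot, 90.0% of 100 genes raised 2-fold, and 6 unchanged genes. The simulated reads held sampling noise alone and used the recovered lengths. Shifts as small as those of the members were not simulated. No count model was run, since the unit is FPKM.

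Ratios are differences of log2(FPKM + 1), with a pseudocount of 1 FPKM that understates those of low genes. The members, gene lists and tests were chosen with earlier results of these data known. All members, both genes of each ratio, up to 4 of the highest detected and up to 3 of the lowest undetected genes of a pathway list and up to 2 at either end of a marker list could be named. Of the genes this rule picks, 1 is left out of the text, though counts include it. Alternatives were other detection limits, pseudocounts, lengths, read filters and library totals, and each aliquot left out. Python 3.11.15, numpy 2.4.6, pandas 2.3.3 and scipy 1.17.1 were used.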

Additional observations from a re-analysis of the deposited data

How the results depend on the processing

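The count of 8 detected members was the same at limits of 0.5 and 5 FPKM, with a mean of at least 1 FPKM and without any 1 aliquot, and the count of 34 detected pathway genes stayed within 1.5 times. Gene length moved most values. Per longest transcript the members' median was 52.7 FPKM and 2 members, Ppp1cb and Rock1, changed place in the order. The median was 147 FPKM with the members under 1 FPKM left out. No log2 ratio changed sign under any alternative run. Per longest transcript and from recovered reads with no length, in that order, the ratio was -1.31 and -1.07 for Rock2 to Rock1, 1.33 and 0.63 for Ppp1r12a to Ppp1r12b, 1.65 and 2.56 for Ppp1r12a to Ppp1r12c, -0.32 and -1.93 for Ppp1r12c to Ppp1r12b, 4.59 and 6.13 for Ppp1cb to Ppp1cc, 1.04 and 0.26 for Myl9 to Myl12a, 1.24 and 0.31 for Myl9 to Myl12b, and 0.45 and 0.73 for Mylk to Rock1. For Mylk to Ppp1r12a it was 4.27 from reads. The changed length enters these settings by construction. A pseudocount of 0.1 FPKM gave 4.84 and no pseudocount 4.85 for Ppp1cb to Ppp1cc. Leaving out 1 aliquot gave 0 to 3 members beyond sampling noise by the chi-square test with Benjamini-Hochberg adjustment, and the cause was not tested. Ratios against Ppp1r14a and Ppp1ca gave no value, since both were listed at 0. No paired analysis was possible because there is 1 group.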
